A study of Homo sapiens with 6 samples.

Results

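The genes described here are 9 transcripts of the NRF2 system, taken by symbol from the 23346 genes in the count table: NFE2L2, which encodes the transcription factor NRF2, KEAP1, which encodes its inhibitor, and the antioxidant targets NQO1, GCLC, GCLM, TXNRD1, SRXN1, AKR1C1 and OSGIN1. They were measured by RNA-seq of poly(A) RNA from BT549, a breast cancer line with mesenchymal traits that the labels give as wild type. One group of 3 libraries came from cells transfected with siRNA against BNC2, a zinc finger protein, and the other 3 from cells given a negative control (NC) siRNA. Both groups received 20 nM siRNA and were measured 6 days later, and the BNC2 siRNA was an equal mix of 3 duplexes against the one gene. The study asked which genes depend on endogenous BNC2. In this bulk RNA, fewer cells of a type and less RNA per cell cannot be told apart.

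NRF2 is a leucine zipper transcription factor that pairs with small MAF proteins and binds the antioxidant response element in the regulatory DNA of its targets. In resting cells KEAP1 holds NRF2 on a CUL3 ubiquitin ligase, which leads to its rapid breakdown by the proteasome. Oxidants and electrophiles modify cysteines of KEAP1, NRF2 then accumulates, and genes for glutathione synthesis, the thioredoxin system and detoxification are transcribed. Much of this control acts on the protein, which was not measured here.

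The libraries held 16093978 to 18246254 counts on genes. BNC2 itself had 65.6, 51.5 and 58.6 CPM (a gene's counts relative to the library total, which was scaled by edgeR's TMM method) with NC siRNA and 35.5, 36.6 and 41.6 CPM with BNC2 siRNA, which left 64.6% of its control level (log2 fold change -0.63 with a standard error, SE, of 0.09, and adjusted p = 8.2e-06). The mesenchymal markers VIM, FN1, CDH2, ZEB1 and SPARC each had at least 107.8 CPM in every library. With BNC2 siRNA, CDH2 rose by 1.36 on the log2 scale (SE 0.05). VIM, FN1 and ZEB1 rose by 0.18, 0.39 and 0.34, and SPARC fell by -0.52 (SE 0.05). The epithelial marker CDH1 had at most 1 count in a library, and EPCAM and ESRP1 had 0. Summed over 5 epithelial markers, the level was 3.67 to 5.63 CPM with NC siRNA and 0.339 to 0.698 CPM with BNC2 siRNA, most of it KRT18, and its part in the results below was not tested. The endothelial markers PECAM1, CDH5 and VWF together stayed at 0.560 CPM or less, and of the immune markers CD3E had at most 1 count and PTPRC at most 0.395 CPM, whereas CD68, a lysosomal protein gene that is not limited to immune cells, had 111 to 150.1 CPM.

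All 9 genes passed the filter on low counts and each was lower after BNC2 knockdown at the 0.05 threshold of edgeR's quasi-likelihood test, after Benjamini-Hochberg adjustment. In each of the 9 the 3 BNC2 siRNA libraries lay below the 3 NC siRNA libraries. The knockdown changed much of the transcriptome, so this count is read against the background: of the 12186 genes tested, 72.9% were called in either direction, 36.2% were called lower and 37.2% had BNC2 siRNA libraries that all lay below the NC siRNA libraries. A fall of at least 2-fold was called in 10.1% of the genes tested (a rise of that size in 8.07%) and in 7 of the 9, the exceptions being GCLM and KEAP1. The median log2 fold change of the 9 was -1.75, and that of all genes tested was 0.00. Together the 9 genes took 0.219% to 0.228% of the gene counts of an NC siRNA library and 0.0491% to 0.0516% of those of a BNC2 siRNA library.

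**Figure D1:**
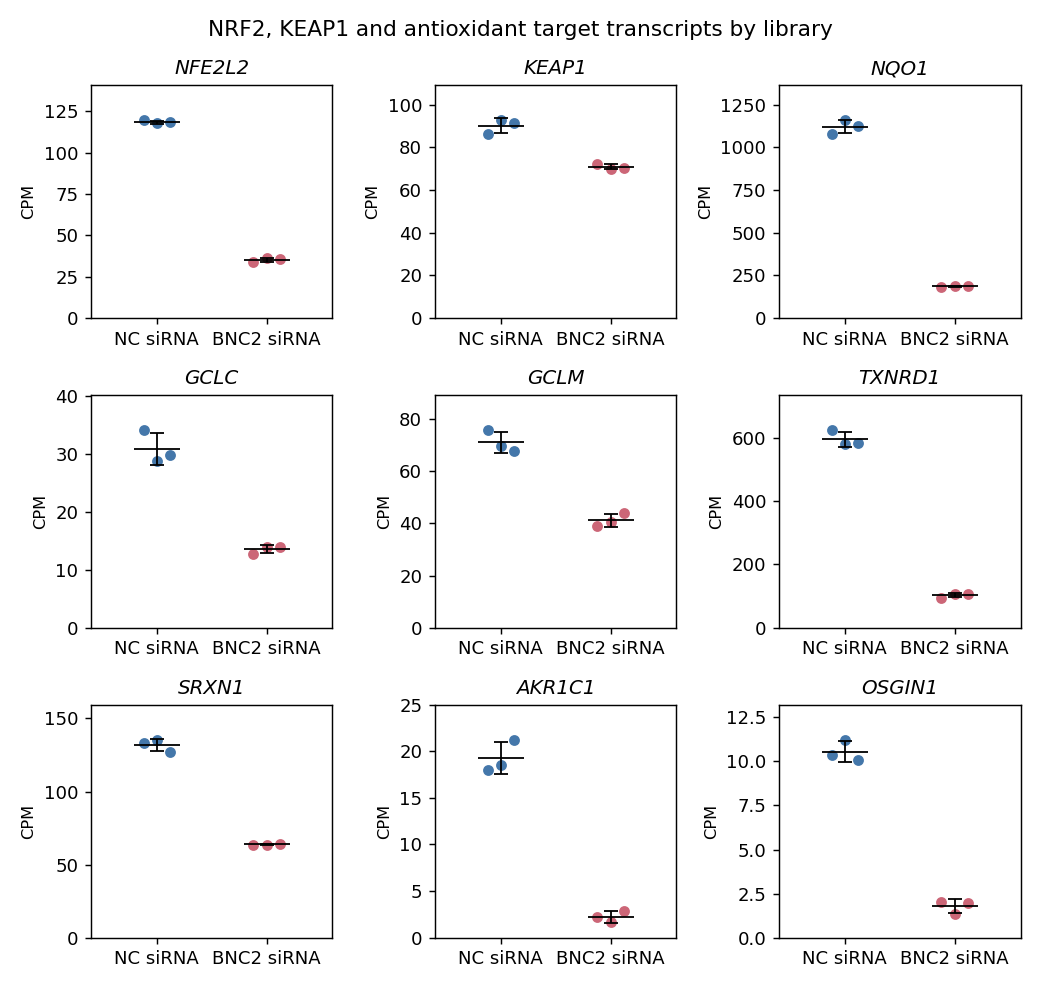
Level of each of the 9 transcripts in CPM (vertical axis from 0) in the 3 NC siRNA libraries (blue) and the 3 BNC2 siRNA libraries (red), with horizontal bars at the mean and error bars of 1 SD (n = 3). In every panel the red points lie below the blue points, with the widest gaps in NQO1, TXNRD1, AKR1C1 and OSGIN1 and the narrowest in KEAP1.

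NFE2L2, the gene for NRF2, lies on chromosome 2 of GRCh37 from 178083395 to 178257484, on the minus strand. NFE2L2 had 119, 118 and 118 CPM with NC siRNA and 33.7, 36.2 and 35.7 CPM with BNC2 siRNA. The replicates were close and the groups far apart, so that 29.7% of the control level remained (log2 fold change -1.75, SE 0.06, adjusted p = 5.2e-13). A fall of this size or larger was fitted for 3.94% of the genes tested.

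KEAP1, the adaptor that brings NRF2 to the CUL3 ligase, lies on chromosome 19 from 10596801 to 10614234 on the minus strand. It had 86.3, 92.6 and 91.6 CPM with NC siRNA and 72.1, 70.0 and 70.4 CPM with BNC2 siRNA. The groups did not overlap, but the fall was the smallest of the 9 (log2 fold change -0.35, SE 0.06, adjusted p = 6.5e-05), and 29.5% of all genes tested had a log2 fold change at least as low. Over the 14 alternative fits its log2 fold change lay between -0.42 and -0.32, with adjusted p-values of at most 0.001.

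To show how the knockdown reagents relate to these transcripts by sequence, the antisense strands of the 3 BNC2 siRNAs and the NC siRNA are printed 5′ to 3′ with the seed, bases 2 to 8, in capitals.
BNC2 siRNA 1: uUUACACUgaucacaagucct
BNC2 siRNA 2: uUGUCAUAgaaugucuucctt
BNC2 siRNA 3: uUUCGGCUucguacagaggtt
NC siRNA: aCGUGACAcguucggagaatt
The BNC2 transcript was complementary to each BNC2 siRNA over 19 bases, and none of the 9 genes over more than 10 (GCLC with siRNA 2). The NFE2L2 canonical transcript holds the complement of the seed of siRNA 1 once and of siRNA 2 once, both in the 3′ UTR and neither in the coding part, and these sites are printed as the transcript reads, with the 7 bases in capitals.
NFE2L2 site of siRNA 1: gtttctgtgtaAGTGTAAa
NFE2L2 site of siRNA 2: ttatatgatgaTATGACAt
Matches of this length are common. Among canonical transcripts of 10681 tested genes found by symbol in GENCODE, 19.3% hold the match of siRNA 1, 20.7% that of siRNA 2 and 5.77% hold both, as against 9.12% for siRNA 3 and 7.12% for the NC siRNA. These shares count a match in any part of the transcript, and shares for the 3′ UTR alone were not computed. GCLC, GCLM and AKR1C1 hold a match of siRNA 1 and NQO1 one of siRNA 2, whereas KEAP1, TXNRD1, SRXN1 and OSGIN1 hold none of the 3. The matches of GCLC and NQO1 lie in the coding part and that of GCLM in the 3′ UTR, and AKR1C1 has a match in each part. AKR1C1 also holds a match of the NC siRNA, in the 3′ UTR. A match is a description of letters, and whether any siRNA acted on these transcripts was not tested.

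NQO1 encodes the quinone reductase that takes its electrons from NADPH or NADH and is a widely used readout of NRF2 activity. It lies on chromosome 16 from 69740899 to 69760571 on the minus strand. It was the most abundant of the 9, with 1081, 1158 and 1124 CPM with NC siRNA and 183, 185 and 188 CPM with BNC2 siRNA. The mean fell from 1121 ± 38.7 to 186 ± 2.54 CPM (SD, n = 3 in each group), which is 6.03-fold lower (log2 fold change -2.59, SE 0.06, adjusted p = 1.3e-15). Only 1.51% of the genes tested had a fold change as low or lower.

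The antioxidant response element has the core TGACNNNGC, in which N is any base, and one form of it, TGACTCAGC, also contains TGACTCA, the site of AP-1 factors. Both were searched on both strands, because the element is what NRF2 binds in its targets. In the window from 2000 bases before to 200 bases after the start of the canonical transcript on GRCh37, TGACTCAGC is present in NQO1 alone among the 9 genes, against 2.54% of 10681 tested genes. It lies at -455 to -447 from the start of NQO1. It is printed with 10 bases on either side, chr16:69760900-69760928 on the minus strand, which is that of the gene, and with the motif in capitals.
NQO1 upstream: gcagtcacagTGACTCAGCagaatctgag
The core is present in 6 of the 9 windows (NQO1, GCLC, GCLM, TXNRD1, AKR1C1 and OSGIN1), but also in 58.1% of the windows of tested genes. In the shorter RefSeq promoters on GRCh38.p14, from 250 bases before to 50 after a start, the core is present in GCLM, TXNRD1 and KEAP1, against 16.1% of 27305 genes. The longer window of KEAP1 holds no core, so the RefSeq start of its promoter is not the canonical start used for that window. The GCLM match at chr1:93909446-93909474 (plus strand, -34 to -26 from the start) and one of 3 TXNRD1 matches, at chr12:104286920-104286948 (minus strand, -102 to -94 from the downstream start listed), are printed on the strand that reads the motif.
GCLM promoter: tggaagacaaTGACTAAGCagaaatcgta
TXNRD1 promoter: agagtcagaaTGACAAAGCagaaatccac
Such a match is no evidence of binding, and no match says only that these letters are not in the window.

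TXNRD1, the cytosolic thioredoxin reductase, is a selenoprotein that keeps thioredoxin reduced with electrons from NADPH. It lies on chromosome 12 from 104609557 to 104744085 on the plus strand. It had 624, 580.4 and 582 CPM with NC siRNA and 95.5, 107 and 107 CPM with BNC2 siRNA. The groups lay far apart, and 17.3% of the control level remained (log2 fold change -2.53, SE 0.06, adjusted p = 8.1e-15). SRXN1 encodes sulfiredoxin, which restores over-oxidised peroxiredoxins, and lies on chromosome 20 from 627259 to 633844, on the minus strand. SRXN1 had 133, 135 and 127 CPM with NC siRNA and 63.5, 63.6 and 64.3 CPM with BNC2 siRNA. The BNC2 siRNA libraries were nearly equal to each other, and SRXN1 was 2.06-fold lower (log2 fold change -1.05, SE 0.06, adjusted p = 1.0e-10).

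The enzyme that makes the first and rate-limiting step of glutathione synthesis has a catalytic subunit from GCLC and a modifier subunit from GCLM. GCLC, on chromosome 6 from 53362139 to 53481768 on the minus strand, had 34.1, 28.8 and 29.9 CPM with NC siRNA and 12.8, 13.9 and 14.0 CPM with BNC2 siRNA. GCLM, on chromosome 1 from 94350755 to 94375012 on the minus strand, had 75.6, 69.7 and 67.8 CPM with NC siRNA and 39.0, 40.4 and 43.9 CPM with BNC2 siRNA. Both were lower without overlap, GCLC by -1.19 on the log2 scale (SE 0.09, adjusted p = 8.0e-09) and GCLM by -0.79 (SE 0.07, adjusted p = 3.8e-08). Per length of the canonical transcript, the ratio of GCLC to GCLM was 0.583, 0.533 and 0.568 with NC siRNA and 0.423, 0.445 and 0.412 with BNC2 siRNA. The catalytic subunit's transcript thus became rarer relative to the modifier's in each library, although no test of this ratio was made beyond the absence of overlap.

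AKR1C1, an aldo-keto reductase that reduces steroids and lipid aldehydes, lies on chromosome 10 from 5005445 to 5025475 on the plus strand. It was weakly expressed, at 18.0, 18.5 and 21.2 CPM with NC siRNA and 2.21, 1.64 and 2.87 CPM with BNC2 siRNA, where it rested on 38, 29 and 45 counts. It nevertheless had the largest fall of the 9, with 11.6% of the control level left (log2 fold change -3.11, SE 0.16, adjusted p = 3.6e-11). AKR1C1 has near-identical paralogs: 16.8% of the 75-base windows of its canonical transcript also occur in a transcript of another gene, mostly AKR1C2, and reads from such windows were not counted because the table holds uniquely mapped reads. NFE2L2, KEAP1, NQO1, GCLC, GCLM, TXNRD1, SRXN1 and OSGIN1 share no such window with a gene at another place. The AKR1C1 share depends on the transcript chosen, which has 6543 bases with 969 coding. The canonical transcript of AKR1C3 has the same coding length in 1186 bases. OSGIN1 encodes an oxidative stress-induced growth inhibitor and lies on chromosome 16 from 83964916 to 83999937 on the plus strand. It had 10.4, 11.2 and 10.1 CPM with NC siRNA and 2.04, 1.35 and 1.97 CPM with BNC2 siRNA. OSGIN1 fell without overlap at this low level, on 35, 24 and 31 counts in the BNC2 siRNA libraries (log2 fold change -2.56, SE 0.17, adjusted p = 7.3e-10).

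**Figure D2:**
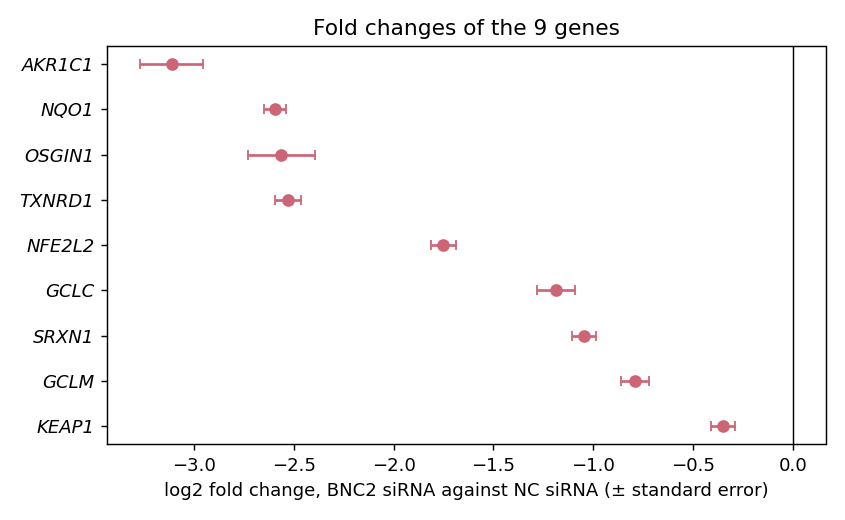
Log2 fold change of each of the 9 genes between BNC2 siRNA and NC siRNA (horizontal axis), with error bars of 1 standard error from edgeR's quasi-likelihood fit. AKR1C1 lies lowest at -3.11 and KEAP1 highest at -0.35, and NFE2L2 at -1.75 separates 4 targets with larger falls from 3 targets with smaller ones.

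The falls formed a graded order. From the largest to the smallest they were AKR1C1, NQO1, OSGIN1, TXNRD1, NFE2L2, GCLC, SRXN1, GCLM and KEAP1. NQO1, OSGIN1 and TXNRD1 could not be separated: NQO1 and OSGIN1 differed by 0.03 on the log2 scale, with a 95% interval from -0.32 to 0.38 from the standard errors of both fits, and OSGIN1 and TXNRD1 by 0.03, with an interval from -0.32 to 0.39. GCLC and SRXN1 differed by 0.14, with an interval from -0.08 to 0.36. The step from TXNRD1 to NFE2L2 was 0.78 (interval 0.60 to 0.95) and that from NFE2L2 to GCLC 0.56 (interval 0.34 to 0.78), so the 4 targets with the larger falls and the 3 with the smaller ones were apart from NFE2L2 by more than this error. These intervals treat the genes as independent, although all come from the same 6 libraries.

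The order of levels also changed. In CPM per kilobase of canonical transcript, the NC siRNA libraries each had the order NQO1 (mean 445 ± 15.4, SD, n = 3), TXNRD1 (154 ± 6.33), SRXN1 (52.1 ± 1.67), NFE2L2 (48.5 ± 0.367), KEAP1 (35.2 ± 1.32), GCLM (14.5 ± 0.832), GCLC (8.17 ± 0.747), OSGIN1 (5.48 ± 0.309) and AKR1C1 (2.94 ± 0.263). With BNC2 siRNA the mean was 73.7 ± 1.01 for NQO1, 27.6 ± 0.444 for KEAP1, 26.7 ± 1.74 for TXNRD1, 25.2 ± 0.169 for SRXN1 and 14.4 ± 0.538 for NFE2L2 in the same unit. KEAP1 and TXNRD1 there differed by less than their spread, whereas KEAP1 lay above NFE2L2 in each BNC2 siRNA library and below it in each NC siRNA library. Lengths of the isoforms present in BT549 cells were not measured, so levels of different genes are compared only approximately. The last place of AKR1C1 rests on a canonical transcript of 6543 bases, of which 969 are coding.

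**Figure D3:**
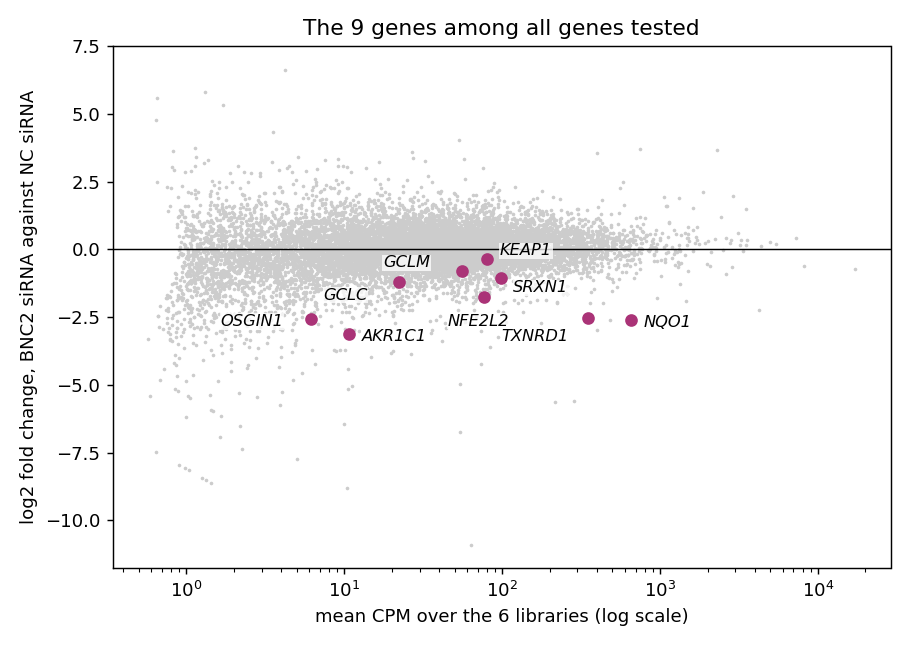
Log2 fold change between BNC2 siRNA and NC siRNA (vertical axis) against the mean CPM over the 6 libraries (horizontal axis, log scale) for the 12186 genes tested (grey), with the 9 genes in purple. TXNRD1 (-2.53) and NQO1 (-2.59) lie below most grey points of similar abundance, whereas KEAP1 lies within the main cloud.

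Lists of related genes place the 9 transcripts in their pathway. Of 18 genes for other NRF2 family members, binding partners and factors of NRF2 breakdown, 16 were tested, of which 7 were called higher and 6 lower, beside 36.6% and 36.2% of all genes tested. The median log2 fold change was 0.11. SQSTM1 encodes p62, which competes with NRF2 for KEAP1 and takes KEAP1 to autophagy, and it fell from 1127 ± 33.8 to 198 ± 11.7 CPM (SD, n = 3), or by -2.51 on the log2 scale (SE 0.06, adjusted p = 4.6e-15). MAFG, a small MAF partner of NRF2, changed by -1.14 on the log2 scale (SE 0.07, adjusted p = 3.2e-10). PALB2, a DNA repair protein that also binds KEAP1, rose by 0.42 (SE 0.08, adjusted p = 2.0e-04), close to NFE2L3 (0.41, SE 0.09) and GSK3B (0.41, SE 0.08), from which it could not be separated. Named after their values were seen, the small MAF partner MAFF fell by -0.97 (adjusted p = 2.3e-08) whereas MAFK, another, rose by 0.33 (adjusted p = 0.0025), the repressor BACH1 rose by 0.36 (adjusted p = 0.0016), the related factor NFE2L1 rose by 0.35 (adjusted p = 4.9e-05), and the ligase scaffold CUL3 was not called (0.09, SE 0.07, adjusted p = 0.26).

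Of 36 genes of glutathione synthesis and use, 27 were tested, of which 17 (63.0%) were called lower and 3 (11.1%) higher, beside 36.2% and 36.6% of all genes tested, with a median log2 fold change of -0.28. In the 27, 5 falls were at least 2-fold, beside 10.1% of all genes tested, and these were those of CHAC1 (-1.70), which breaks glutathione down, GSTO1 (-1.38), a glutathione transferase, GGCT (-1.23), an enzyme of the gamma-glutamyl cycle, SLC3A2 (-1.18), the heavy chain of amino acid exchangers, and GSR, glutathione reductase, from 105 ± 4.40 to 52.6 ± 1.36 CPM (SD, n = 3). Their adjusted p-values were 3.9e-07, 2.6e-10, 5.2e-11, 7.2e-11 and 3.7e-10. GSTZ1, which acts in tyrosine breakdown, had the largest rise (1.53, SE 0.19, adjusted p = 2.0e-06). The cystine carrier SLC7A11, a known NRF2 target named after its value was seen, was not called (log2 fold change -0.07, SE 0.10, adjusted p = 0.54).

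Of 22 genes for thioredoxins, peroxiredoxins, dismutases and related enzymes, 20 were tested, of which 6 were called lower and 6 higher, with a median of -0.12. Both shares (30.0%) lay below those of all genes tested, 36.2% and 36.6%. Leaving out NC siRNA replicate 1 raised the number called lower to 10. TXNIP, an inhibitor of thioredoxin, fell from 104 ± 5.51 to 26.6 ± 1.06 CPM (SD, n = 3; log2 fold change -1.97, adjusted p = 4.6e-13). SOD2, the mitochondrial superoxide dismutase, fell by -1.85 (adjusted p = 8.0e-14), and PRDX1, a cytosolic peroxiredoxin, by -1.44 (adjusted p = 1.3e-12). TXNRD3, a relative of TXNRD1, rose by 1.16 (SE 0.13, adjusted p = 8.2e-07), opposite to TXNRD1.

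All 12 genes of NADPH supply were tested, of which 6 were called lower and 3 higher, beside 36.2% and 36.6% of all genes tested, with a median of -0.16. PGD, a dehydrogenase of the pentose phosphate pathway, fell from 572 ± 1.70 to 145 ± 3.39 CPM (SD, n = 3; log2 fold change -1.98, adjusted p = 2.0e-14). PGLS, a lactonase of the same pathway, had the largest rise (0.35, SE 0.12, adjusted p = 0.014). That call was lost without BNC2 siRNA replicate 1 (0.21, adjusted p = 0.11) and without NC siRNA replicate 1 (0.23, adjusted p = 0.068).

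Of 33 genes of detoxification and haem handling, 29 were tested, of which 22 (75.9%) were called lower and 5 (17.2%) higher, beside 36.2% and 36.6% of all genes tested, with a median of -0.72. The count of falls includes AKR1C2, ALDH3A1 and ABCG2, which passed the filter on low counts through the NC siRNA libraries and could hardly be called higher. When any 1 NC siRNA library was left out, 26 were tested, of which 19 were called lower and 5 higher. HMOX1, the inducible haem oxygenase, fell from 710.1 ± 36.2 to 89.7 ± 6.06 CPM (SD, n = 3; log2 fold change -2.99, adjusted p = 1.6e-15), and BLVRB, a biliverdin reductase, fell by -1.60 (adjusted p = 4.7e-10). The ferritin chains FTH1 and FTL fell by -2.25 and -1.80 (adjusted p = 1.6e-14 and 1.6e-12), with the limit that 31.5% and 9.54% of their 75-base windows recur in other transcripts. SLC48A1, a haem transporter, fell by -2.00 (adjusted p = 8.9e-11). Of the relatives of AKR1C1, AKR1C2 had 22.2, 22.0 and 21.4 CPM with NC siRNA and 0.349, 0.621 and 1.02 CPM with BNC2 siRNA (log2 fold change -5.05, SE 0.19, adjusted p = 9.9e-13). The BNC2 siRNA values of AKR1C2 rest on 6, 11 and 16 counts. AKR1C3 fell by -3.97 (SE 0.14, adjusted p = 3.3e-13). Of the 75-base windows, 36.0% in AKR1C2 and 12.3% in AKR1C3 recur in transcripts of other genes, and reads from these were not counted. AKR1C4 had 0 counts in every library, and AKR1A1, another aldo-keto reductase, rose by 0.50 (SE 0.07, adjusted p = 6.7e-06). The other falls of at least 2-fold in genes with at least 5 CPM were those of CBR3 (-2.22), ABCC3 (-1.82), AKR1B1 (-1.44) and EPHX1 (-1.40), 2 reductases, a conjugate exporter and an epoxide hydrolase. ALDH3A1 and ABCG2, named after their values were seen, were at 0, 0 and 0 and at 2, 2 and 0 counts with BNC2 siRNA, and against a floor of 3 counts per library they were at least 7.17-fold and 9.25-fold lower. ABCC1, a glutathione conjugate exporter, had the largest rise (0.91, SE 0.07, adjusted p = 5.0e-09).

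**Figure D4:**
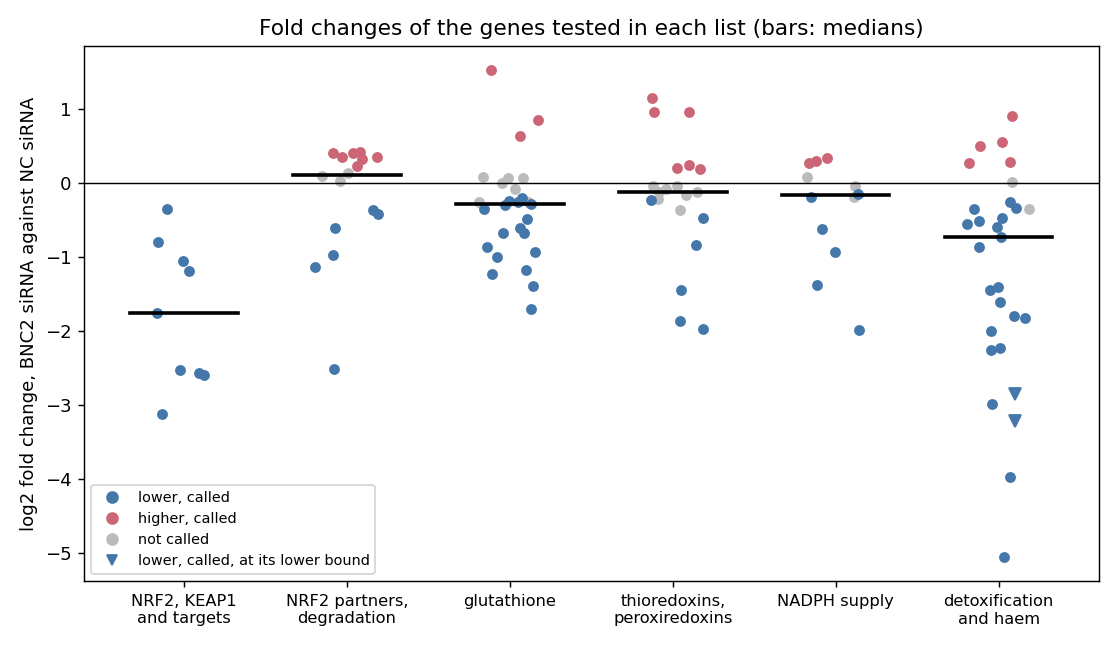
Log2 fold change between BNC2 siRNA and NC siRNA (vertical axis) of each tested gene of the 9 transcripts and of the 5 related lists, coloured by call, with black bars at the medians. All points of the first column lie below 0, the NRF2 partners lie on both sides of 0, with SQSTM1 lowest at -2.51, and the list of detoxification and haem genes reaches lowest, to -5.05 in AKR1C2, with ALDH3A1 and ABCG2 drawn as triangles at the bound that 3 counts allow.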

How the data were processed

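The authors aligned single-end 75-base reads to hg19 with STAR 2.6.1d and the iGenomes UCSC annotation and deposited raw counts of uniquely mapped reads per gene, which in all 23346 genes equal the reverse-strand column of the library tables. Reads assigned to no gene because they were unmapped, multimapped, ambiguous or outside genes (together 37.7% to 41.1% of a library) entered neither library sizes nor tests. Conditions and replicate numbers came from the labels, and the methods call the replicates biological. Every replicate pair differed by more than sampling noise (chi-square per degree of freedom 3.50 to 11.9).

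In R 4.3.3, edgeR 4.0.16 was applied to the 12186 genes that exceeded 1 CPM in 3 or more libraries, with TMM scaling and the quasi-likelihood test, and p-values were adjusted over all these genes by Benjamini-Hochberg. A standard error is the log2 fold change divided by the square root of F. CPM are TMM-scaled, and 3 counts correspond to 0.168 to 0.191 CPM. Bounds and floors cover counting error only. On counts simulated from these libraries with 200 genes changed 2-fold, 97.4% of the 191 that passed the filter among 12048 genes were recovered, with 9 false calls. The alternatives were the likelihood ratio test, DESeq2 1.42.0, DESeq2's size factors, total counts, no filter, filterByExpr, a replicate block, both strands and leaving out each library.

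Positions and lengths are from GENCODE release 44 on GRCh37, the assembly of hg19, and promoters from RefSeq. The symbols of all 9 genes matched both. The siRNA sequences are those the study lists, where the antisense strand of BNC2 siRNA 3 carries the number of siRNA 2 and was assigned here by the sense strand listed above it, to which it is complementary. The 9 genes, the lists and the tests were chosen with earlier results of these data known. Named in the other lists are genes called with an absolute log2 fold change of at least 1, no overlap and at least 5 CPM in the higher group or, where fewer than 2 in a direction met this, the largest called change. Some genes that this rule or the marker lists name are not reported here.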

Additional observations from a re-analysis of the deposited data

How the results depend on the processing

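Each of the 9 genes was called lower under all 14 alternatives, with log2 fold changes from -3.32 to -2.92 for AKR1C1, -2.67 to -2.56 for NQO1, -2.67 to -2.38 for OSGIN1, -2.60 to -2.47 for TXNRD1, -1.83 to -1.71 for NFE2L2, -1.26 to -1.13 for GCLC, -1.12 to -1.02 for SRXN1, -0.87 to -0.75 for GCLM and -0.42 to -0.32 for KEAP1. The number of genes called was 8514 with DESeq2, 9662 without the low-count filter and 8084 to 8596 when 1 library was left out. Scaling by total counts shifted the median of all genes tested to -0.07. The number of genes of the thioredoxin list called lower was 6 to 10 when 1 library was left out. With the replicate number as a block, 8400 genes were called and all 9 genes remained lower. Same-numbered libraries did not deviate together (correlations of -0.21, -0.08 and -0.13), so the numbers were not taken as pairs. Among the 9 genes, depth limited AKR1C1 and OSGIN1 most. In the related lists AKR1C2 rested on fewer counts than these (6, 11 and 16 with BNC2 siRNA), and ALDH3A1 and ABCG2 allow only a bound.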

Other observations

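The motif TGACTCAGC was also searched from 2000 bases before to 200 bases after the starts of the related genes on GRCh37. It is present in 6 of 29 tested genes of detoxification and haem handling (20.7%), in 4 of 27 of the glutathione list (14.8%), in 2 of 12 of NADPH supply, in 1 of 16 NRF2 partners and in 0 of 20 of the thioredoxin list, beside 2.54% of all tested genes with a window. The 6 are FTL, ALDH3A2, BLVRA and FECH, which fell by log2 fold changes of -1.80, -0.86, -0.55 and -0.51, ABCC1, which rose by 0.91, and PIR, which was not called (-0.35). In the glutathione list GPX4 (-0.92) and GSTP1 (-0.67) fell, GSTA4 rose (0.86) and GSTK1 was not called (0.07). TALDO1 fell (-0.62) and ME1 rose (0.28). SQSTM1, which fell by -2.51, holds 2 copies, and the one nearer to its start at chr5:179247543-179247571 (minus strand) and those of FTL at chr19:49467189-49467217 and GSTP1 at chr11:67351207-67351235 (both plus strand) are printed with the motif in capitals, on the strand that reads it.
SQSTM1 upstream: ggcctggccaTGACTCAGCaatatcctca
FTL upstream: gagctcagcaTGACTCAGCagtcgctgcc
GSTP1 upstream: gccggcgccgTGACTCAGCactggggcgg
Genes with the motif thus moved in both directions, and no test was made of the difference between the lists.

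Reads on the strand opposite to the 9 genes, which the gene counts leave out, made up 0.00% to 2.56% of the reads on either strand in a library. These were few reads, with at most 7 in a library for GCLC, GCLM, AKR1C1 and OSGIN1. For NQO1 the opposite strand had 9.21 to 12.8 CPM with NC siRNA and 1.05 to 2.14 CPM with BNC2 siRNA. As a share of the NQO1 reads on either strand, this was 0.81% to 1.11% with NC siRNA and 0.57% to 1.14% with BNC2 siRNA. The shares overlapped, so the opposite strand fell along with the gene's own reads.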
